A study of Mus musculus with 8 samples.

Results

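Regulators of G protein signalling (RGS proteins) were examined in Tregs, CD4+ T cells that depend on the transcription factor Foxp3 and hold other immune cells in check. The 8 genes Rgs1, Rgs2, Rgs3, Rgs10, Rgs14, Rgs16, Rgs18 and Rgs19 were taken by symbol from a table of 38406 genes. Of these, 7 were among the 14772 genes with enough counts to be tested, and Rgs18 was not. All values are from bulk RNA sequencing libraries made from 1500 Tregs each, sorted from the spleen or from skeletal muscle of male C57BL/6 mice.

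There were 4 groups of 2 libraries. The young groups came from mice 2 months old and the aged groups from mice more than 6 months old, and each age gave splenic and muscle Tregs. All groups share the injury: the tibialis anterior, quadriceps and gastrocnemius muscles had received 0.9 µg of cardiotoxin, a snake toxin that kills muscle fibres, and the tissues were taken 4 days later. The splenic groups are therefore from injured animals too, and no uninjured mice are among the samples. The libraries are described as biological duplicates. How many animals went into each, and whether spleen and muscle came from the same animals, is not given. The p-values measure the spread between these 8 libraries.

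G protein-coupled receptors, which include the chemokine receptors that steer lymphocytes, make a Gα subunit exchange GDP for GTP and part from Gβγ. RGS proteins bind the GTP-loaded Gα and speed up hydrolysis of the GTP, which ends the signal. Most can act on Gαi, the subunit used by chemokine receptors, and some on Gαq, which drives phospholipase Cβ. In lymphocytes they are known for setting how long a cell responds to a chemoattractant. Rgs1, Rgs2, Rgs3, Rgs16 and Rgs18 belong to the R4 subfamily, mostly small proteins built around the RGS domain. Rgs10 and Rgs14 belong to the R12 subfamily, and Rgs19, also known as GAIP, belongs to the RZ subfamily.

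Each library held between 1969982 and 4008622 counts, and between 16996 and 21279 genes had at least 1 count. Spearman correlations of the libraries within a group were 0.965 and 0.967 in spleen and 0.893 and 0.920 in muscle. All 10 Treg markers examined were above 5 CPM (counts per 1000000 counts of the library, its size adjusted by the TMM method) in every library, and Foxp3 lay between 15.4 and 41.5 CPM. Young muscle library 1 stood apart in markers of other cells. Its 17 myeloid markers summed to 713 CPM, against 181 CPM in young muscle library 2 and 80.6 to 155 CPM in the other 6 libraries. Its 12 platelet markers summed to 99.4 CPM, against 23.0 CPM in young muscle library 2 and 10.1 to 17.4 CPM elsewhere. Among defining markers, Ppbp was at 0 in 5 libraries and Gp9 in 6, whereas Lyz2 and Pf4 were at 0 in none. Col1a1, a collagen gene of stromal cells, was at 150 CPM in it, against 15.0 CPM in young muscle library 2. Aged muscle library 2 stood apart as well, with the most genes detected and Spearman correlations with spleen libraries of 0.765 to 0.812. Its sum of the 10 Treg markers was the lowest (4408 CPM, against 5270 to 5802 CPM in the others). That sum includes genes shared with other T cells, such as Cd3d and Lck, which were lowest in this library (373 and 589 CPM). Its Foxp3 (23.7 CPM) and Ctla4 (1330 CPM) were not the lowest. Its stromal genes Dcn and Col3a1 were at 30.4 and 28.3 CPM. The 8 B cell markers summed to 86.8 to 162 CPM, with Cd79b, Cd22 and Ebf1 reaching 55.3, 56.7 and 61.6 CPM. The 7 markers of natural killer and CD8+ T cells summed to 13.5 to 24.8 CPM, with Cd8b1 reaching 15.0 CPM. Of muscle fibre genes, Ckm reached 3.38 CPM and Myh1 8.03 CPM, both in aged muscle library 2. Myh4 reached 7.99 CPM in young muscle library 2 and Tnnt3 10.3 CPM in young spleen library 1. The part of other cells in the results was not tested. Tissue values of the RGS genes in young mice, and of some genes of the other lists, are also given without young muscle library 1.

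The genes of the group lie on several chromosomes (GRCm38, GENCODE M21). Rgs2 (chr1:143999338-144004161, minus strand), Rgs1 (chr1:144242296-144249242, minus strand) and Rgs18 (chr1:144752683-144775435, minus strand) are neighbours in 1 cluster of 776 kb that also holds Rgs13. Rgs16 (chr1:153740349-153745468, plus strand) is on the same chromosome, 8.96 Mb away. Rgs3 is at chr4:62559847-62704001 on the plus strand, Rgs10 at chr7:128373621-128418758 on the minus strand, Rgs14 at chr13:55369732-55384687 on the plus strand and Rgs19 at chr2:181688419-181693977 on the minus strand. All are protein-coding genes.

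The windows of 250 bases before the RefSeq start of Rgs2 and Rgs16 (GRCm38.p6) are shown. These 2 genes of the R4 subfamily had tissue differences of opposite sign, but that of Rgs16 passed only in aged mice. Rgs3, also of R4, was lower in muscle at both ages, and its windows are not shown. The windows of Rgs2 and Rgs16 are written 5′ to 3′ on the strand of the gene. They are chr1:144004150-144004399 (minus strand) for Rgs2 and chr1:153740103-153740352 (plus strand) for Rgs16. Capitals mark each match, on either strand, to TGACG, the core of the cAMP response element.

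Rgs2: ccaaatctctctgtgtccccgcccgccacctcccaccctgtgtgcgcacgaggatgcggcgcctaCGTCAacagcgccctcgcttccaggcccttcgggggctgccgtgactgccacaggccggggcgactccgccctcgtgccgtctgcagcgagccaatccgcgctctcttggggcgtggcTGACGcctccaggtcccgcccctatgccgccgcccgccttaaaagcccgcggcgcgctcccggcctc

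Rgs16: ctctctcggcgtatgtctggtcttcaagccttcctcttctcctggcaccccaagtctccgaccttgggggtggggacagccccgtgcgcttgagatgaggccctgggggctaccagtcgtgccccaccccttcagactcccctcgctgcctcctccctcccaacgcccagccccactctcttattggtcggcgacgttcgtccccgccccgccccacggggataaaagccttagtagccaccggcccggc

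The Rgs2 window holds 2 such matches, at 185 and 67 bases before the start, the first on the opposite strand as CGTCA. The Rgs16 window holds none. TGACG is a short motif and occurs on either strand in 17.8% of 32851 RefSeq windows of the same length. Neither window holds the full element TGACGTCA, present in 1.55% of windows, nor the AP-1 motif TGACTCA, present in 4.46%; TGACG is contained in the full element. The GC box GGGCGG, found in 32.7% of windows, matched 4 times in the Rgs2 window and 2 times, overlapping by 1 base, in the Rgs16 window. Windows of Rgs3, Rgs10 and Rgs19 were also searched and hold no TGACG. A match in letters describes the sequence and is not evidence of a bound site.

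**Figure D1:**
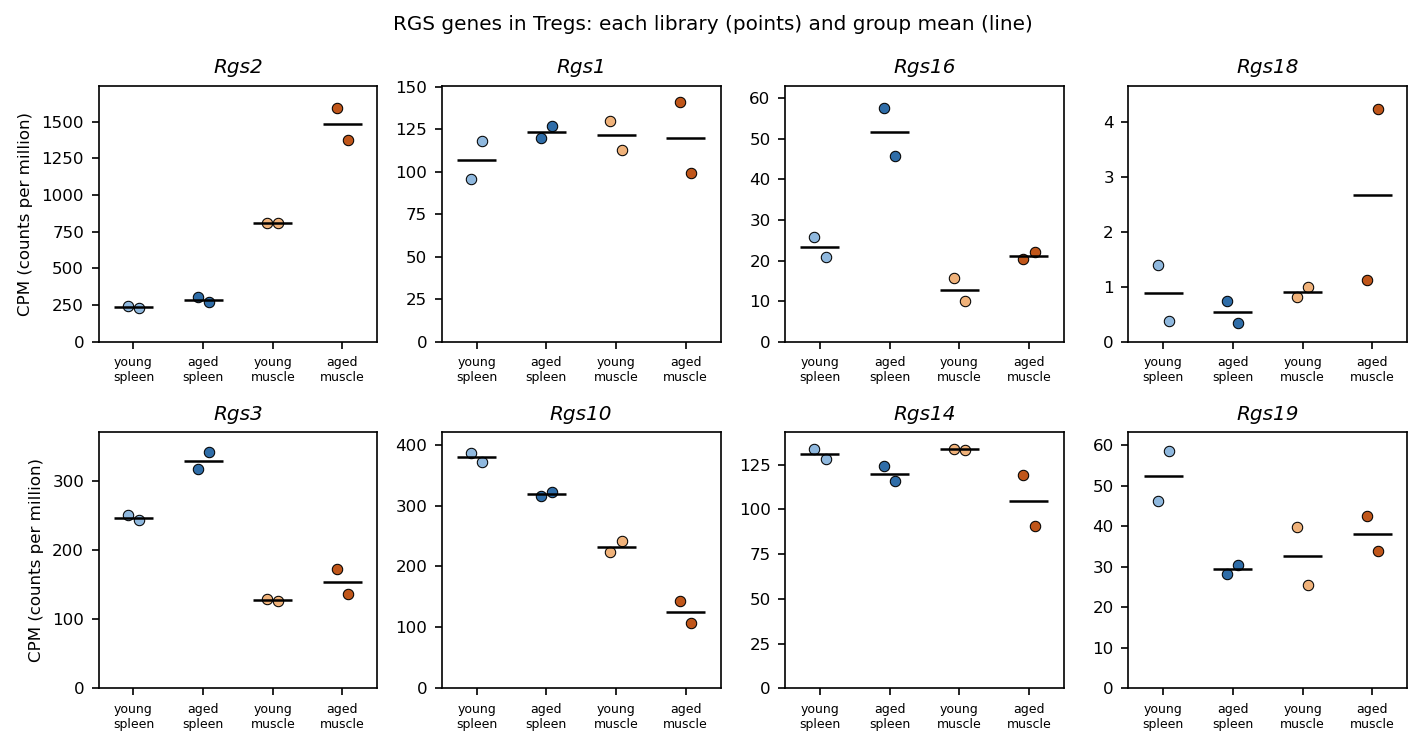
Level of each RGS gene in each of the 8 libraries (points) with the group mean (line), in CPM on a linear axis that starts at 0 and differs between panels. Rgs2 ran from 231 to 305 CPM in spleen and from 807 to 1593 CPM in muscle, Rgs3 and Rgs10 were lower in every muscle library than in any spleen library, and Rgs1 and Rgs14 overlapped between tissues.

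Rgs2 had the largest difference between tissues of the 7 genes tested. Rgs2 is a small RGS protein that acts preferentially on Gαq and is known as a gene induced early after cell stimulation. Its level was 245 and 231 CPM in young spleen, 305 and 272 CPM in aged spleen, 807 and 808 CPM in young muscle, and 1593 and 1376 CPM in aged muscle. The 4 groups did not overlap: every muscle library was above every spleen library, and both aged groups were above the young group of the same tissue. Rgs2 was 3.39-fold higher in muscle than in splenic Tregs of young mice (log2 fold change 1.76 ± 0.15 SE, adjusted p = 9.4e-07, edgeR's two-sided quasi-likelihood test, n = 2 per group). In aged mice the difference was 5.14-fold (log2 2.36 ± 0.15, adjusted p = 1e-07 in the same test). Both calls held under all 14 alternatives run, with log2 fold changes from 1.72 to 1.88 in young and from 2.28 to 2.46 in aged mice.

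Rgs2 was also higher in aged than in young muscle Tregs, by 1.84-fold (log2 0.88 ± 0.14, edgeR adjusted p = 0.0038). This call rests on the spread shared by all 4 groups: fitted on the muscle libraries alone, the value stayed at 0.88 but adjusted p became 0.14. Without young muscle library 1 it was 0.88 with adjusted p = 0.027. In spleen the aged minus young difference was 0.28 on the log2 scale, with a 95% interval of -0.03 to 0.59 and adjusted p = 0.36. The difference between the age effects in the 2 tissues was 0.60 (interval 0.16 to 1.04), which did not pass in edgeR (adjusted p = 0.17); DESeq2 gave 0.61 and called it.

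Of the R4 genes named above, the others that were tested (Rgs1, Rgs3 and Rgs16) did not follow Rgs2. Rgs13, which lies in the same cluster as Rgs2 and is not counted among these, was higher in muscle. Its log2 fold change was 3.26 in young mice (edgeR adjusted p = 0.073) and 3.31 in aged mice (edgeR adjusted p = 0.045). Its levels were low, at most 3.19 CPM in spleen and 25.8 CPM in muscle. The call in aged mice ended when any of the aged libraries was left out. Rgs3, which acts on Gαi and Gαq, was lower in muscle at both ages. It stood at 251 and 243 CPM in young spleen, 317 and 342 CPM in aged spleen, 130 and 127 CPM in young muscle, and 173 and 136 CPM in aged muscle, so all muscle libraries were below all spleen libraries. The muscle minus spleen difference was -0.94 ± 0.17 on the log2 scale in young mice (edgeR adjusted p = 0.00096) and -1.09 ± 0.16 in aged mice (edgeR adjusted p = 0.00036). Both calls held under 14 of 14 alternatives, and without young muscle library 1 the value in young mice was -0.95. With age, Rgs3 differed by 0.42 in spleen (adjusted p = 0.19) and by 0.26 in muscle (adjusted p = 0.48), neither past the threshold.

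Rgs16, an RGS protein of Gαi and Gαq that is induced when T cells are activated, was, per exon length, the lowest of the 7 genes tested in 6 of 8 libraries. It was at 25.7 and 20.9 CPM in young spleen, 57.6 and 45.8 CPM in aged spleen, 15.7 and 9.99 CPM in young muscle, and 20.5 and 22.0 CPM in aged muscle. Aged spleen was above all other groups. In aged mice Rgs16 was lower in muscle than in spleen (log2 fold change -1.28 ± 0.33, edgeR adjusted p = 0.014). That call ended when any 1 of the 4 aged libraries was left out, with values between -1.44 and -1.11. In young mice the difference was -0.84 (adjusted p = 0.099), and -1.21 without young muscle library 1 (adjusted p = 0.054). Between aged and young spleen it was 1.15 ± 0.33, just outside the threshold (edgeR adjusted p = 0.063). Of its exon bases, 236 (10.1%) are shared with the antisense transcript Gm28513, which has no row of its own; whether counting used strand is not given in the sources used here.

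Rgs1, known for limiting chemokine responses of lymphocytes, had similar levels in all groups. They were 95.8 and 118 CPM in young spleen, 120 and 127 CPM in aged spleen, 130 and 113 CPM in young muscle, and 141 and 99.0 CPM in aged muscle. The groups overlapped between tissues and, in muscle, between ages. The tissue difference in young mice was 0.18 with a 95% interval of -0.26 to 0.61 (edgeR adjusted p = 0.55). These libraries are compatible with any difference within that interval, and so do not show that there is none. Without young muscle library 1 the estimate was 0.07. Rgs18, known as the RGS protein of platelets and megakaryocytes, had 3, 1, 3, 1, 2, 2, 3 and 10 counts, taking the spleen libraries first (young, then aged) and then those of muscle. A limit of 3 counts per group corresponds to 0.427 to 0.669 CPM, and the highest library, aged muscle 2, reached 4.23 CPM. Young muscle library 1, with the highest platelet marker sum, had 0.805 CPM of Rgs18.

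The R12 genes differed from each other. Rgs10, a small protein that acts on Gαi, was at 386 and 372 CPM in young spleen, 315 and 323 CPM in aged spleen, 223 and 241 CPM in young muscle, and 144 and 108 CPM in aged muscle. The 4 groups did not overlap and ran in the reverse order to those of Rgs2. Muscle was lower than spleen in young mice (log2 fold change -0.71 ± 0.16, edgeR adjusted p = 0.0064). In aged mice the log2 fold change was -1.34 ± 0.17 (edgeR adjusted p = 7.1e-05). The call in young mice ended without young spleen library 1 (-0.68, adjusted p = 0.066), and without young muscle library 1 it was -0.65 (adjusted p = 0.029). Aged muscle Tregs had less Rgs10 than young muscle Tregs (log2 fold change -0.88 ± 0.17, edgeR adjusted p = 0.011). That call ended when only the muscle libraries were fitted (adjusted p = 0.25) and without aged muscle library 2 (-0.69, adjusted p = 0.061); without young muscle library 1 it was -0.93 (adjusted p = 0.027). In bulk RNA, fewer cells that contain a transcript and less of it per cell cannot be told apart.

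Rgs14, which pairs its RGS domain with a GoLoco motif that holds Gαi in the GDP-bound form, passed the test in no comparison. Its levels were 134 and 128 CPM in young spleen, 124 and 116 CPM in aged spleen, 134 and 133 CPM in young muscle, and 119 and 90.5 CPM in aged muscle. The tissue difference in young mice was 0.03, with an interval of -0.35 to 0.42, and 0.03 without young muscle library 1. The lowest library was aged muscle 2, without which the tissue difference in aged mice went from -0.19 to -0.01. Rgs19, an RGS protein of the Gαi class, was at 46.3 and 58.5 CPM in young spleen, 28.2 and 30.5 CPM in aged spleen, 39.8 and 25.5 CPM in young muscle, and 42.5 and 33.8 CPM in aged muscle. Young spleen was highest and the other groups were close together, with the muscle groups overlapping. No comparison passed for Rgs19: the tissue difference in young mice was -0.68 (adjusted p = 0.11), and without young muscle library 1 it was -1.04 and passed.

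**Figure D2:**
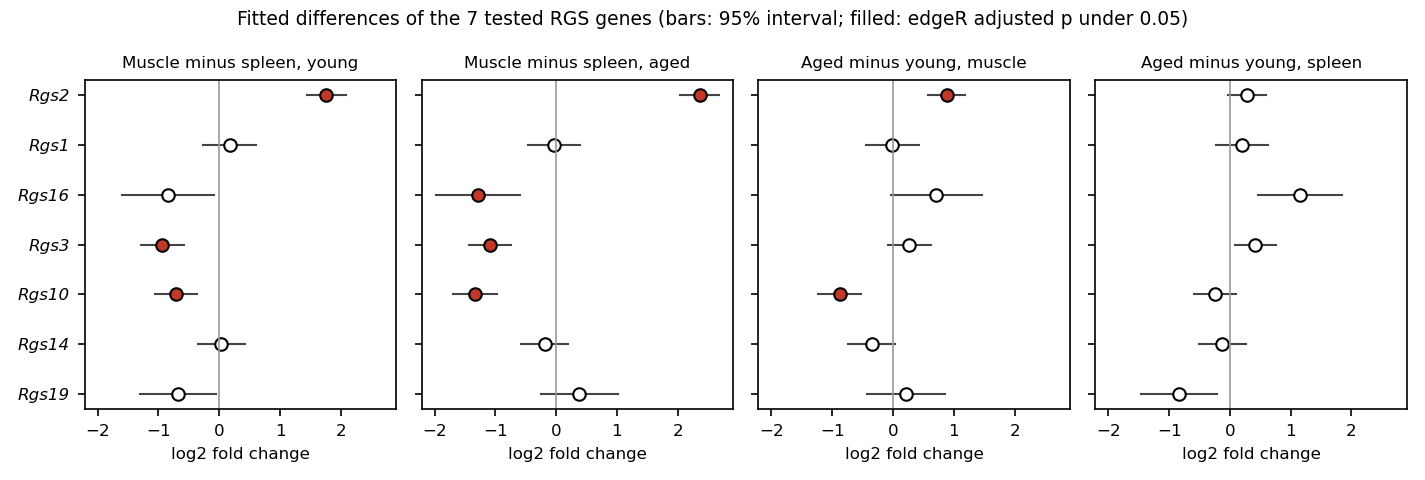
Log2 fold change of each tested RGS gene in the 4 comparisons between groups, with 95% intervals from edgeR. Filled points passed an adjusted p of 0.05 over all 14772 genes. Rgs2 is above 0 and Rgs3 and Rgs10 below 0 in both tissue comparisons, with 1.76 and 2.36 for Rgs2.

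Counted over the 7 genes tested, 3 passed between tissues in young mice, 1 higher (Rgs2) and 2 lower (Rgs3, Rgs10) in muscle, against 22.3% of all genes (11.4% higher and 10.9% lower). In aged mice 4 of the 7 passed, with Rgs16 added to those lower in muscle, against 18.8% of all genes (9.57% higher and 9.27% lower). With age in muscle 2 of the 7 passed, Rgs2 higher and Rgs10 lower, against 2.02% of all genes (1.14% higher and 0.88% lower). The medians of the 7 log2 fold changes were -0.68, -0.19 and 0.22 in these comparisons, and those over all genes 0.07, 0.03 and 0.03.

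With age in spleen 0 of the 7 passed in edgeR, against 4.24% of all genes (2.08% higher and 2.17% lower), and 0 passed in DESeq2. At an unadjusted p under 0.05, 3 of the 7 differed (Rgs3 and Rgs16 higher, Rgs19 lower in aged spleen). The count past the adjusted threshold depends on the fit: it rose from 0 to 3 when only the spleen libraries were fitted (Rgs3, Rgs16 and Rgs19) and to 3 with scaling by library size alone (Rgs2, Rgs3 and Rgs16). For the difference between the age effects 0 of the 7 passed in edgeR, against 2.52% of all genes (1.35% higher and 1.17% lower). At an unadjusted p under 0.05, 3 did (Rgs2, Rgs10 and Rgs19), and DESeq2 called 1, Rgs2.

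Levels of different genes can be set side by side only per length. CPM was divided by the exon length of each gene and expressed as a share of the sum over the 8 RGS genes. In spleen, Rgs10 made up 60.3% and 59.3% of that sum at the young age and 51.9% and 53.8% at the older one; in muscle it made up 33.9% and 36.5%, then 16.7% and 15.1%. Rgs2 made up 13.4% and 12.9%, then 17.6% and 15.9% in spleen, and 43.0% and 42.9%, then 64.9% and 67.5% in muscle. Rgs10 thus ranked first in all 4 spleen libraries and Rgs2 in all 4 muscle libraries. With lengths from all annotated transcripts the first ranks were the same, and the share of Rgs2 in muscle ran from 50.6% to 73.3%. Rgs14 came next after both in all 8 libraries with basic exon lengths, with 6.13% to 10.1%. Shares per length take reads as evenly spread along transcripts, which was not tested here.

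**Figure D3:**
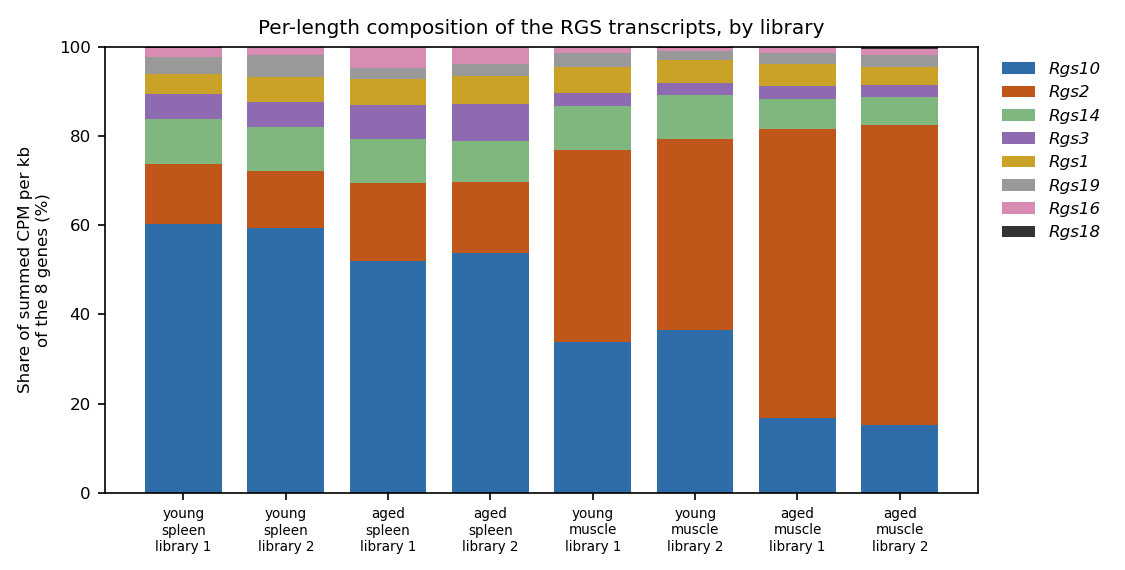
Share of each RGS gene in the sum of CPM per kilobase over the 8 genes, by library, as stacked bars that reach 100%. Rgs10 takes 51.9% to 60.3% of the bar in spleen libraries, and Rgs2 takes 42.9% to 67.5% in muscle libraries.

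Rgs2 is known as an early response gene, so other genes of that kind were read beside it. Of 18 immediate early genes, 11 were higher and 4 lower in muscle than in spleen of young mice, and 12 were higher and 3 lower in aged mice (background 22.3% and 18.8%). Fosb and Atf3, subunits of AP-1-type transcription factors, rose by 3.71 and 4.56 on the log2 scale in young mice, and Nr4a1, an orphan nuclear receptor, by 2.31. Jun fell (log2 fold change -1.76), as did Hspa1a (-5.46), a heat shock gene whose near-identical copy Hspa1b could have shared its reads. The summed level of the 18 genes was 6625 to 7190 CPM in spleen and 10249 to 12477 CPM in muscle. With age in muscle 0 of the 18 passed in edgeR, against 2.02% of all genes, and a list of this size cannot be set apart from that share. In edgeR 3 had an unadjusted p under 0.05, and DESeq2 called 2. The sums in muscle were 12477 and 11905 CPM in young and 12050 and 10249 CPM in aged libraries. Such genes also respond to tissue dissociation; the part of sample handling in the Rgs2 levels was not tested.

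**Figure D4:**
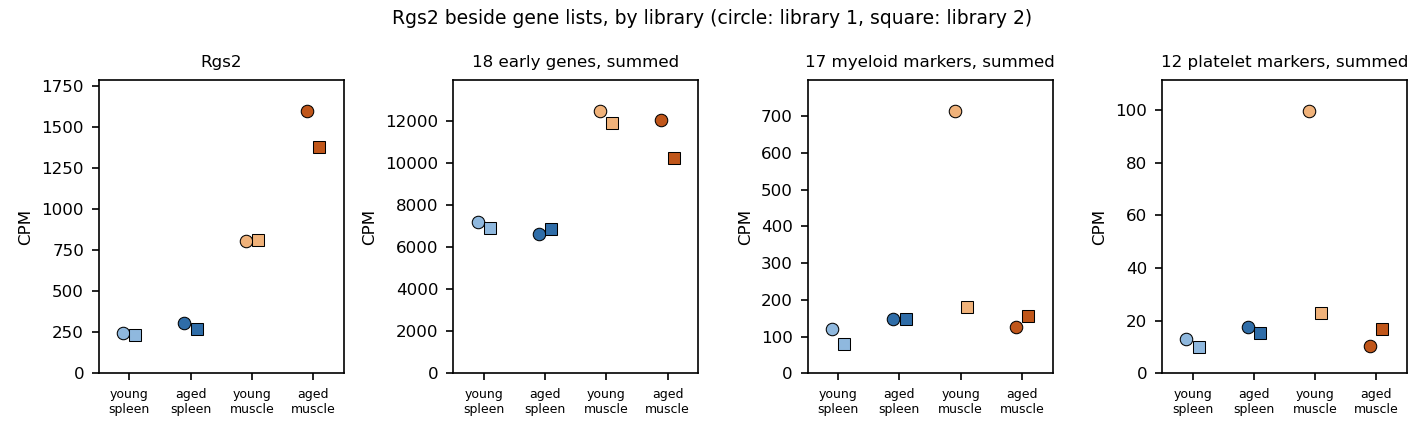
Rgs2 beside the summed CPM of 18 immediate early genes, 17 myeloid markers and 12 platelet markers in each library (circle for library 1, square for library 2; axes start at 0 and differ between panels). The 2 young muscle libraries have 807 and 808 CPM of Rgs2 and myeloid sums of 713 and 181 CPM.

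The myeloid and platelet marker sums of the 2 young muscle libraries differed, and their Rgs2 levels were 807 and 808 CPM. The tissue difference of Rgs2 in young mice was 1.76 with and without young muscle library 1. In aged muscle, where Rgs2 was highest, the myeloid markers summed to 126 and 155 CPM, against 80.6 to 148 CPM in spleen. In aged muscle library 1, 5 of the 17 were at 0. The part of other cells in the Rgs2 levels was not tested.

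Of 12 further RGS genes in the table, 9 were tested, at levels up to 90.9 CPM (Rgs6 in aged muscle library 2). In young mice 2 were higher in muscle (Rgs20 and Rgs22) and in aged mice 2 (Rgs13 and Rgs22), which is 22.2% of the 9 at each age, against 22.3% and 18.8% of all genes. These calls were not stable: of 14 alternatives, 12 kept that of Rgs20, 9 that of Rgs22 in young mice (log2 3.01 to 7.05), 11 that of Rgs22 in aged mice (2.63 to 4.98) and 8 that of Rgs13 (2.54 to 5.60). Among the libraries whose removal ended them were young spleen 1 and young muscle 2 for Rgs20 and, for Rgs22, young spleen 1 and 2, both aged spleen libraries, young muscle 2 and aged muscle 2. Rgs13 lost its call without any 1 of the 4 aged libraries. Rgs22 ran from 0 to 1.02 CPM in spleen and was at 2.01, 10.5, 5.59 and 28.3 CPM in muscle. In both muscle groups the library with more Rgs22 was the one with more genes detected, and the part of this in the calls was not tested. DESeq2 called 4 of the 9 in young and 2 in aged mice. Of 13 proteins with an RGS or RGS-like domain outside the family, 2 were lower in young and 3 in aged muscle (15.4% and 23.1%, against 22.3% and 18.8% of all genes), and DESeq2 called 1 and 3. Arhgef1, which uses such a domain to bind active Gα13, had group means of 1686 ± 94 and 1309 ± 21 CPM (SD, n = 2) in young and aged spleen and 1037 ± 110 and 833 ± 130 CPM in young and aged muscle. Its tissue log2 fold changes were -0.70 ± 0.15 and -0.65 ± 0.15. The call in young mice ended without young spleen library 2 (adjusted p = 0.059), and that in aged mice without either aged spleen library. Of 8 other regulators of Gα or its receptors tested, 1 was lower in young and 2 in aged muscle (12.5% and 25.0%). The one at both ages was Arrb2, a β-arrestin that uncouples receptors, at -0.47 ± 0.15 and -0.50 ± 0.15; its calls held under only 6 and 8 of 14 alternatives.

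Among the Gα subunits tested, 4 of 12 passed between tissues at each age (33.3%, against 22.3% of all genes in young and 18.8% in aged mice). The list is not limited to the Gαi and Gαq classes named above as targets of RGS proteins. Gnai2, the main Gαi of lymphocytes, was at 1202 and 1220 CPM in young spleen, 1207 and 1174 CPM in aged spleen, 1568 and 1403 CPM in young muscle, and 1458 and 1120 CPM in aged muscle. It passed in no comparison in edgeR, with a tissue difference in young mice of 0.30 (interval -0.03 to 0.62, adjusted p = 0.17). That difference did pass with library-size scaling (0.41, adjusted p = 0.019), with DESeq2 (0.33) and without aged muscle library 1 (0.30, adjusted p = 0.048), and was 0.21 without young muscle library 1. Gna15, a member of the Gαq class found in blood cells, rose from 17.2 ± 0.78 CPM in spleen to 173 ± 15 CPM in muscle of young mice (log2 3.33 ± 0.23, edgeR adjusted p = 1.6e-07), and in aged mice from 28.8 ± 0.52 to 115 ± 24 CPM (log2 2.00 ± 0.21). Gna13, which encodes Gα13, rose by 0.92 and 1.04.

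Gnaq, the Gα subunit preferred by Rgs2, was at 78.5 and 79.4 CPM in young spleen, 133 and 182 CPM in aged spleen, 108 and 113 CPM in young muscle, and 87.9 and 77.4 CPM in aged muscle. Aged spleen was highest. Gnaq was higher in aged than in young spleen (0.99 ± 0.20, edgeR adjusted p = 0.0092) and lower in muscle than in spleen of aged mice (-0.92 ± 0.20, edgeR adjusted p = 0.0047). The call with age in spleen ended without either young spleen library or aged spleen library 2, and the tissue call in aged mice without aged spleen library 2 (-0.68, adjusted p = 0.10). Of 12 Gβ and Gγ subunits tested, 3 were higher and 1 lower in young muscle, among them Gnb2, a Gβ subunit, at 0.77 ± 0.15. The 4 calls are 33.3% of the 12, against 22.3% of all genes. In aged mice 0 of the 12 passed in edgeR, against 18.8% of all genes, and 0 passed in DESeq2. In edgeR 4 had an unadjusted p under 0.05.

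The receptors upstream differed more widely. Of 27 chemoattractant and lymphocyte receptors tested, 13 were higher and 8 lower in muscle of young mice, and 13 higher and 7 lower in aged mice (77.8% and 74.1%, against 22.3% and 18.8% of all genes). Ccr2, a receptor of inflammatory chemokines, rose from 25.4 ± 0.37 to 663 ± 32 CPM in young mice (log2 4.70 ± 0.19) and from 27.9 ± 2.1 to 434 ± 60 CPM in aged mice (3.95 ± 0.18). Ccr3 and Cx3cr1, further chemokine receptors, rose by 6.51 and 2.42 in young mice. Ccr7, the receptor for homing to lymph nodes, fell from 351 ± 50 to 42.4 ± 8.4 CPM in young mice (log2 fold change -3.04 ± 0.23) and from 147 ± 24 to 24.5 ± 6.5 CPM in aged mice (-2.58 ± 0.23). With age in spleen, S1pr1, the receptor that guides lymphocytes out of lymphoid organs, fell from 140 ± 19 to 47.0 ± 0.23 CPM (-1.57 ± 0.20, edgeR adjusted p = 0.00033).

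Of 25 effectors downstream, 7 were higher and 6 lower in muscle of young mice, and 5 higher and 2 lower in aged mice (52% and 28%, against 22.3% and 18.8% of all genes). Crem, a transcription factor of the cAMP pathway, rose from 84.8 ± 1.0 to 442 ± 11 CPM in young mice (log2 2.38 ± 0.17) and from 98.7 ± 9.6 to 408 ± 70 CPM in aged mice (2.05 ± 0.17). The cAMP phosphodiesterase gene Pde4d rose by 1.25 and 1.44, whereas Pde7a, another cAMP phosphodiesterase gene, fell (-1.80 and -1.91). The calls for Gna13, Gna15, Ccr2, Ccr3, Ccr7, Cx3cr1, Crem, Pde4d and Pde7a between tissues, and for S1pr1 with age in spleen, held under every alternative run. With age in muscle, where 2.02% of all genes passed, 0 of 12 Gα subunits and 0 of 25 effectors did so in edgeR, which lists of this size cannot set apart from that share; at an unadjusted p under 0.05 there were 1 and 4, and DESeq2 called 0 and 2.

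Without young muscle library 1 its group holds 1 library, so effect sizes are given for the lists and not counts of genes passing. The tissue log2 fold changes in young mice were then 3.42 for Gna15, 4.75 for Ccr2, -3.26 for Ccr7 and 2.36 for Crem.

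Across the 8 libraries, logged levels of Rgs2 and Rgs10 had a Pearson correlation of -0.94, those of Rgs2 and Rgs3 of -0.81, and those of Rgs3 and Rgs16 of 0.87. These are descriptions of 8 libraries that fall into 2 tissues. Among 7794 genes with a mean of at least 4 log2 CPM, those whose levels followed Rgs2 most closely were Fam46a (0.988), Zc3h12a (0.987), which encodes an RNase that degrades inflammatory transcripts, and Il1rl1 (0.986), the receptor of interleukin 33. Closest to Rgs10 were Nipbl (0.987), Hmha1 (0.986) and Fgd3 (0.985), and closest to Rgs3 were Phf15 (0.990), Grik5 (0.987) and Rabgap1l (0.986). Rgs1 had the weakest best match of the 7, Fzr1 at 0.925.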

How the data were processed

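The authors deposited 1 table of raw read counts per gene for the 8 libraries, 2 per group, with genes named by symbol. Per the labels' protocols, RNA from 1500 sorted Tregs was reverse transcribed, amplified by in vitro transcription for 9 hours and then by PCR for 15 cycles, so counts are not independent molecules, and intervals cover the spread between libraries or counting error only. The submitters' processing notes name TopHat, TopHat2, Picard, SAMtools 0.1.19, HTSeq and mm10; which gene models were counted, and whether by strand, is not given in the sources used here.

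Genes were kept by filterByExpr, scaled by TMM and tested with edgeR 4.0.16 in R 4.3.3 (robust quasi-likelihood fit of all 8 libraries, 4 residual degrees of freedom, two-sided, Benjamini-Hochberg adjusted p under 0.05 over 14772 genes). Standard errors were taken as the log2 fold change over the square root of its F statistic. Correlations used log2 CPM with a prior count of 2. Alternatives were DESeq2 1.42.0, scaling by library size or relative log expression, no filter, a replicate block, fits of only the groups compared, and leaving out each library. The steps were tested on simulated data.

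Positions and exon lengths came from GENCODE M21 (GRCm38, the same assembly as mm10) and promoter windows from RefSeq, which held 5 of the 8 genes. The text names all 8 RGS genes, up to 3 genes of smallest adjusted p per list and comparison, and Gnai2, Gnaq and Arhgef1; of immediate early genes and markers, those defining the list or with large differences were named after their values were seen. The genes and lists were chosen with earlier results of these data known. Results for some genes of the lists are not reported here.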

Additional observations from a re-analysis of the deposited data

Results flagged for a closer look

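For the 7 genes of the receptor and G protein lists given here, the difference between tissues in aged mice was unlike that in young mice, by edgeR's test of the difference itself. None of the RGS genes was among them. Of all genes, 2.52% passed this test. The shares were 16.7% of 12 Gα subunits, 14.8% of 27 receptors and 8.0% of 25 effectors. They were 0 of 12 Gβ and Gγ subunits and 0 of 8 other regulators, which lists of this size cannot set apart from the share of all genes. Values are the age effect in muscle minus that in spleen, on the log2 scale. Gnaq, the Gα subunit on which Rgs2 acts, had -1.41 (adjusted p = 0.012), with 0.99 in spleen and -0.42 in muscle. Gna15, of the same class, had -1.33 (adjusted p = 0.035), with 0.74 in spleen and -0.59 in muscle. Plcb4, a phospholipase Cβ, had -1.34 (adjusted p = 0.020), with 35.3 and 76.6 CPM in young and aged spleen and 88.8 and 76.3 CPM in muscle.

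Among receptors the difference was -2.33 for Ccr3, 3.07 for Ccr9 and 1.46 for S1pr1. Pik3r5, a regulatory subunit of the phosphoinositide 3-kinase driven by Gβγ, had 1.40. For Ccr9 the libraries ran from 7.11 to 23.4 CPM in spleen and from 9.66 to 56.7 CPM in muscle. Each of these 7 calls ended without at least 1 library. S1pr1 lost it without young spleen library 1 or either aged spleen library, and Gnaq without either young spleen library or aged spleen library 2. The other 5 lost it without any 1 of the 4 spleen libraries, and all of these but Ccr3 also without at least 1 muscle library.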

How the results depend on the processing

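Of the RGS genes' values under alternatives, 451 kept their direction and their side of the threshold, 13 passed it newly, 8 no longer passed and 11 changed sign. The number of RGS genes called stayed within 1.5 times for tissue at both ages (2 to 4 in young and 3 to 4 in aged mice when a library was left out). With age in muscle it was 2, fell to 0 when only the muscle libraries were fitted, and was 1 to 2 with a library left out (1 without aged muscle library 2). With age in spleen it was 0, but 3 with library-size scaling, 3 with only the spleen libraries, 1 with no filter (Rgs16), and 0 to 1 with a library left out (Rgs16, without either young muscle library). For the difference of age effects it was 0, 1 with DESeq2, and 0 to 1 with a library left out (Rgs10, without aged muscle library 1). The cause of these changes was not tested.

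The replicate numbers are not stated to mark a shared animal, so the numbers were not taken to pair the libraries. Deviations from the group means correlated at 0.11 between young spleen and young muscle, and at -0.07 between aged spleen and aged muscle. With 2 libraries per group, these values cannot tell whether animals were shared. A fit with the replicate number as a block called 1 RGS gene with age in spleen (Rgs16).

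Values that changed sign were small. Rgs1 between tissues in aged mice (-0.04) became 0.02 with library-size scaling, 0.01 with relative log expression and with DESeq2, and ran from -0.29 without aged muscle library 1 to 0.19 without aged muscle library 2. Rgs1 with age in muscle (-0.02) became 0.10 with library-size scaling and 0.09 without young muscle library 1, and ran from -0.29 without aged muscle library 1 to 0.21 without aged muscle library 2. The differences of age effects of Rgs1 and Rgs3 both became 0.01 without aged muscle library 2, and were -0.48 and -0.32 without aged muscle library 1. Rgs19 with age in muscle became -0.06 without young muscle library 2 (0.58 without library 1), and Rgs14 with age in spleen 0.04 with library-size scaling. Gnai2 became -0.07 between tissues in aged mice without aged muscle library 1 (0.29 without library 2), and 0.14 with age in spleen under library-size scaling. Library-size scaling moved the median of all genes by 0.11 between tissues in young mice, 0.12 with age in muscle and 0.17 with age in spleen.

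With 2 libraries per group and 1969982 to 4008622 counts each, small differences of genes such as Rgs1 and Rgs14 were not detectable, and Rgs18 could not be tested. Some larger estimates did not pass either, such as -0.84 for Rgs19 with age in spleen (edgeR adjusted p = 0.14).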
